A study of Homo sapiens with 8 samples.

Results

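The genes of sterol and fatty acid synthesis were followed in 293T cells exposed to EerI, CBU-028 or 5-NA. They are 32 genes chosen by their known function, with earlier results of these data known. The list holds the enzymes from the mevalonate pathway to cholesterol, the SREBP factors with their regulators, and a sterol carrier. It also holds the enzymes that make, elongate and desaturate fatty acids. Each gene was represented by 1 probe set, the one with the highest mean over the 8 arrays among probe sets annotated to a single gene. That left 29 of the 32 genes, among 19775 genes represented in the same way. CYP51A1 and FADS1 had only probe sets annotated to a second gene as well, and FDFT1 had none in the annotation used here, so these 3 were not counted.

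Cells control these genes together. The precursors of the SREBP transcription factors sit in the membrane of the endoplasmic reticulum (ER) bound to SCAP, a sterol sensor that escorts them to the Golgi when membrane sterols are low. There they are cleaved, and the freed fragments enter the nucleus and switch on genes of sterol and fatty acid synthesis. INSIG1 and INSIG2 hold SCAP in the ER when sterols are plentiful, and INSIG1 is itself a target of the SREBP factors. SREBF2 is known mainly for the sterol genes and SREBF1 mainly for the fatty acid genes.

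293T cells, derived from human embryonic kidney, express the large T antigen of SV40. They were treated for 10 h with 10 µM EerI (Eeyarestatin I), 10 µM CBU-028 or 10 µM 5-NA (5-nitrofuryl-acrolein), and each group, with the control group, has 2 arrays. EerI inhibits the degradation of ER proteins and consists of a nitrofuran-containing group and an aromatic domain, and 5-NA corresponds to the nitrofuran-containing group. Whether the control cells received solvent is not stated. The titled experiment number of both 5-NA arrays is that of another compound, CBU-029, so every 5-NA value rests on the remaining labels, which name 5-NA. Each treatment was made in duplicate, which the study also calls a biological replicate, and p-values measure the spread between these arrays. All values are log2 expression values, and the number of arrays limits their precision, with a median SE of 0.0853 for the log2 fold change of a member. The arrays were alike in their median (6.89 to 6.93), as RMA makes them. ACTB, read for RNA quality, had a 3′ signal above its 5′ signal by 0.0743 to 0.196 on 7 arrays and by 0.363 on 5-NA replicate 2. Of 7 markers known from this line, VIM (13.7 to 13.8), NEFL (13.1 to 13.6) and KRT18 (12.2 to 12.3) were high, NEFM (9.7 to 10.3) and KRT8 (9.31 to 9.72) lay in between, and PAX2 (6.58 to 6.95) and LHX1 (7.14 to 7.34) were low. NEFL and NEFM were lower with CBU-028 than in control (-0.38 and -0.43), while with 5-NA NEFL was lower (-0.41) and KRT8 higher (0.29), and what these shifts contributed to the lipid genes was not tested. The 5 measured B cell markers lay between 5.01 and 7.87.

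Promoter sequence is shown for 5 of the members. They are INSIG1, the ER anchor of SCAP, and MSMO1, which removes methyl groups from sterol intermediates. HMGCS1, which makes HMG-CoA at the entry of the mevalonate pathway, SREBF2, and ELOVL6, which elongates palmitate, are the others. HMGCS1 passed with no compound against control, while IDI1, LSS, LPIN1 and PMVK passed and are not shown. The windows are the 250 bases before the RefSeq start in GRCh38.p14, read 5′ to 3′ on the strand of the gene. They are chr7:155297628-155297877 (plus strand) for INSIG1, chr4:165327419-165327668 (plus) for MSMO1, chr5:43313413-43313662 (minus) for HMGCS1, chr22:41832855-41833104 (plus) for SREBF2 and chr4:110198616-110198865 (minus) for ELOVL6. HMGCS1 has 2 starts in the table, and the window with more matches is shown. Capitals mark matches on either strand to a classical sterol regulatory element (TCACCCCAC), an E-box (CACGTG), the CCAAT box spelled by its name and the GC box (GGGCGG), with the reverse complements standing for matches on the other strand.
INSIG1: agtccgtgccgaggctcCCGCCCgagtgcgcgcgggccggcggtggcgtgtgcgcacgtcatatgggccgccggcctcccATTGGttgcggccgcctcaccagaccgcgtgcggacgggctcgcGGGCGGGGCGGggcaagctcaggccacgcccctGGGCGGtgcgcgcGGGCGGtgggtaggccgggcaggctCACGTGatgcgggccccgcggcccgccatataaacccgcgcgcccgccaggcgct
MSMO1: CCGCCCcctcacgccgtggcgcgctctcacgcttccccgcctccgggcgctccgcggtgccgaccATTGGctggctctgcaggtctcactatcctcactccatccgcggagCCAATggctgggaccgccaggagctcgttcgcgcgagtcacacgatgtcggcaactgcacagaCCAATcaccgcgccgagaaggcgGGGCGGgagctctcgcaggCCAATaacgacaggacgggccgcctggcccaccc
HMGCS1: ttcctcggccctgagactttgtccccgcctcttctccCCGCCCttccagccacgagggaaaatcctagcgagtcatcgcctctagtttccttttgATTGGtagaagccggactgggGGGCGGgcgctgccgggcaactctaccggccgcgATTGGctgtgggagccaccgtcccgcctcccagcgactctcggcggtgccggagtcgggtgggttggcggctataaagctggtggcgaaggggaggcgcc
SREBF2: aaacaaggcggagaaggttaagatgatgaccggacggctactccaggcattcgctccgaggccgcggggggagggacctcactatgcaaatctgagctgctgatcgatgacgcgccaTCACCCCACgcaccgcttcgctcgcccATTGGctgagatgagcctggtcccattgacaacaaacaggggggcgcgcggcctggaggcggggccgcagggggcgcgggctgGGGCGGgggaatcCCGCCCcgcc
ELOVL6: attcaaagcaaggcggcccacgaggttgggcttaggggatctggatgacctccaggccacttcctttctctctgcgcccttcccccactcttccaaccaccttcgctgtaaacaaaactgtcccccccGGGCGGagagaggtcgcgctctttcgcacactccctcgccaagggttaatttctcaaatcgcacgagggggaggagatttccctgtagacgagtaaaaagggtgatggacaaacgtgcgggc
INSIG1 carries an E-box 55 to 50 bases before the start and 5 GC boxes, of which 2 overlap by 1 base. MSMO1 carries 4 CCAAT boxes, HMGCS1 2 and ELOVL6 none. The table holds 42 windows for 29 of the 32 genes listed (SQLE, FDFT1 and FASN are not in it). The sterol element was in 1 of them, that of SREBF2, and in 0.36% of all 35116 windows. The CCAAT box was in 24 of the 42 windows (32% of all windows), the GC box in 37 (42.6%) and the E-box in 4, those of INSIG1, SCAP and SC5D (6.34%). A match is a match of letters and does not show that a factor was bound. Only exact letters within 250 bases were searched, so a missing match does not show that a site is absent.

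The genes fell more often than they rose with each compound. EerI lowered 5 of the 29 genes and raised none (limma adjusted p under 0.05), where 0.263% of all genes were called lower and 0.506% higher. CBU-028 lowered 6 and raised 1, where 7.1% of all genes were called lower and 5.49% higher. 5-NA lowered 4 and raised none, where 10.9% of all genes were called lower and 7.87% higher. The share of members called lower was thus 17.2% with EerI, 20.7% with CBU-028 and 13.8% with 5-NA. That was far above the background for EerI, above it for CBU-028 and near it for 5-NA. The members were chosen with earlier results of these data known, so these shares describe the genes and do not test them as a set. The EerI count fell to 1, INSIG1, when a control or an EerI array was left out, and to 1 by the methods' ANOVA with Benjamini-Hochberg adjustment. At an unadjusted p under 0.05, limma gave 10, 11 and 13 members lower with EerI, CBU-028 and 5-NA, and 0, 1 and 0 higher. The share of all genes at this unadjusted threshold was not computed. Such counts, here and in the lists below, therefore have no background beside them. The median log2 fold change of the members was -0.10 with EerI, -0.10 with CBU-028 and -0.16 with 5-NA, against -0.0016, -0.00992 and -0.0268 over all genes. Both treated arrays lay below both control arrays in 18, 20 and 19 members (27.2, 29.4 and 36.3% of all genes), and above both in 2, 4 and 3 (24.3, 25.7 and 26.2%). The 3 comparisons share their control arrays. Arrays of whole cultures cannot tell less RNA per cell from fewer cells that carry it.

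**Figure D1:**
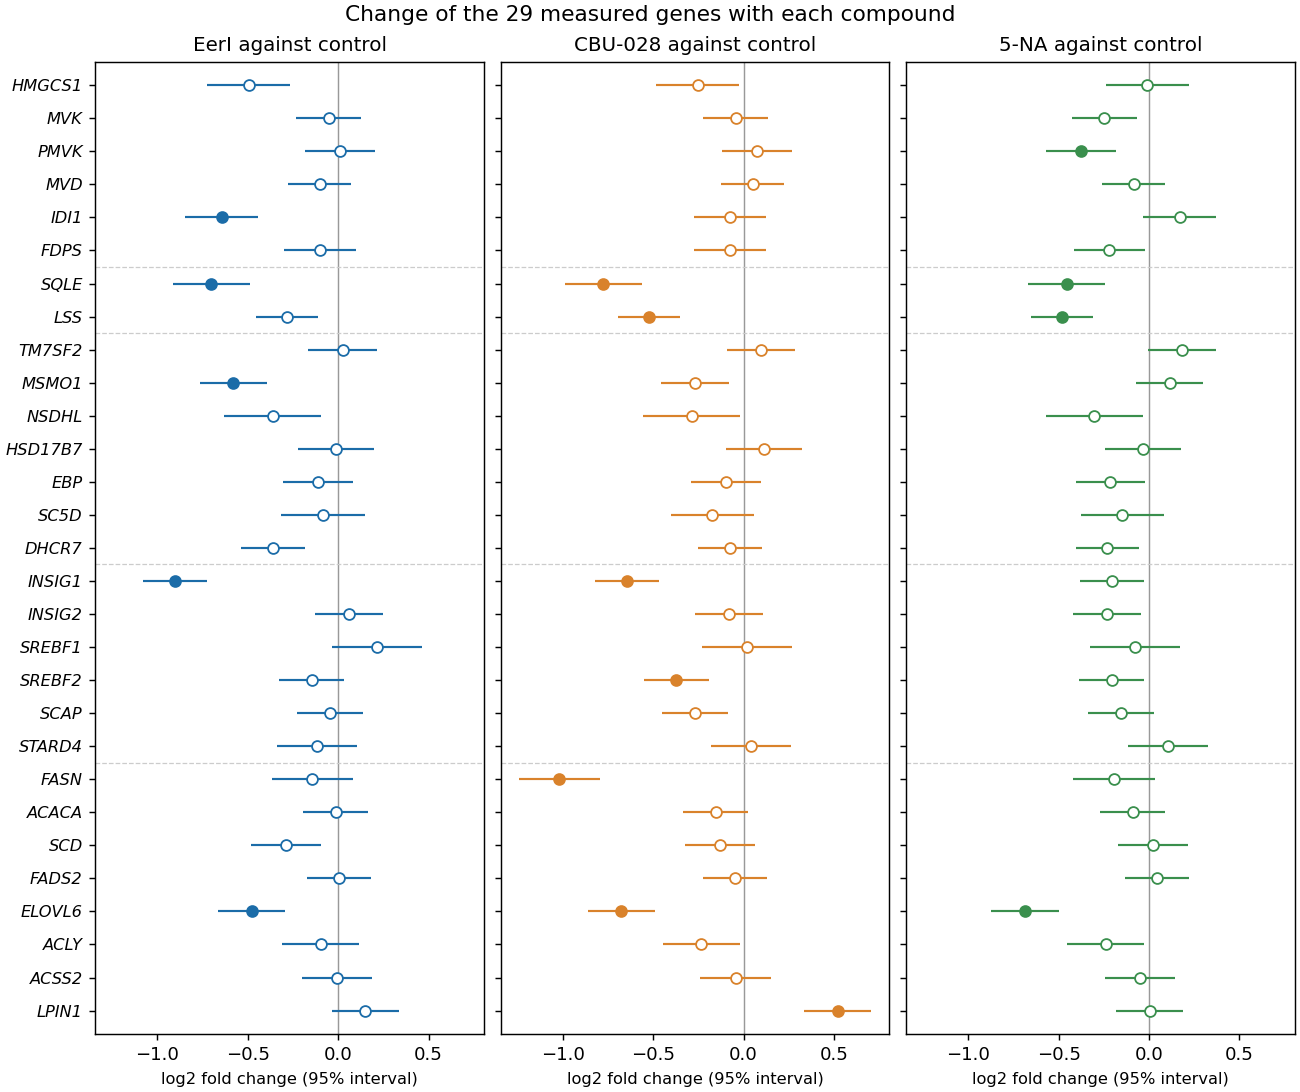
Log2 fold change of the 29 measured genes with EerI, CBU-028 and 5-NA against control (points) with its 95% interval (lines), in the order of the pathway, with dashed lines between mevalonate, squalene and lanosterol, later sterol, regulator and fatty acid genes. Filled points passed a limma adjusted p under 0.05: 5 genes were lower with EerI, 6 lower and 1 higher with CBU-028, and 4 lower with 5-NA.

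SQLE and ELOVL6 were the 2 members that fell with all 3 compounds. INSIG1 fell with EerI and CBU-028, and LSS with CBU-028 and 5-NA. Another 6 members changed with a single compound by this threshold, and the other 19 passed with none. The 6 were IDI1 and MSMO1 with EerI, FASN, SREBF2 and LPIN1 with CBU-028, and PMVK with 5-NA. The share of all genes called with several compounds was not computed. The shared control arrays also make calls coincide, so these overlaps are given as counts only.

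Among the regulators, INSIG1 showed the deepest change with EerI. Its control arrays were at 11.37 and 11.36, those of EerI at 10.42 and 10.51, those of CBU-028 at 10.76 and 10.69, and those of 5-NA at 11.14 and 11.19. The groups did not overlap and ran from control down through 5-NA and CBU-028 to EerI. Against control, INSIG1 was lower 1.87-fold with EerI (-0.90 on the log2 scale, SE 0.0785, limma adjusted p = 0.00121) and 1.56-fold with CBU-028 (-0.64, limma adjusted p = 0.00164), and at -0.20 with 5-NA (limma adjusted p = 0.126, 95% interval -0.38 to -0.03). Its 3 probe sets, at -0.60, -1.07 and -0.90, were each called with EerI, and INSIG1 was the 1 gene of the 5 lowered by EerI that stayed called whichever of the 8 arrays was left out. The fall with CBU-028 also stayed called without each array.

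INSIG2, the relative of INSIG1 that also holds SCAP, passed against control with none of the compounds. Its arrays were at 8.71 and 8.67 in control, 8.70 and 8.81 with EerI, 8.67 and 8.56 with CBU-028, and 8.45 and 8.47 with 5-NA. It was at 0.06 with EerI (95% interval -0.13 to 0.25) and at -0.23 with 5-NA (limma adjusted p = 0.103).

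The genes of the SREBP factors and of SCAP showed small differences. SREBF2 was at 9.58 and 9.62 in control, 9.44 and 9.46 with EerI, 9.18 and 9.27 with CBU-028, and 9.43 and 9.35 with 5-NA. All treated arrays lay below the control arrays, and the fall with CBU-028 passed (-0.37, SE 0.0795, limma adjusted p = 0.0202), but 2 dimmer probe sets of the gene were at -0.09 and 0.20, and without control replicate 1, control replicate 2 or CBU-028 replicate 1 the adjusted p rose to at most 0.148. This is the gene whose promoter window above holds the sterol element. SREBF1 was at 9.40 and 9.31 in control, 9.60 and 9.54 with EerI, 9.21 and 9.54 with CBU-028, and 9.26 and 9.29 with 5-NA, with no call. The CBU-028 arrays of SREBF1 were far apart (SD 0.234, where the other groups had at most 0.0691). SCAP was at 10.75 and 10.74 in control, 10.68 and 10.72 with EerI, 10.42 and 10.54 with CBU-028, and 10.62 and 10.56 with 5-NA. Its largest difference from control, -0.27 with CBU-028, did not pass (limma adjusted p = 0.0734). STARD4, a soluble carrier of cholesterol, lay between -0.12 and 0.10 with the 3 compounds.

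**Figure D2:**
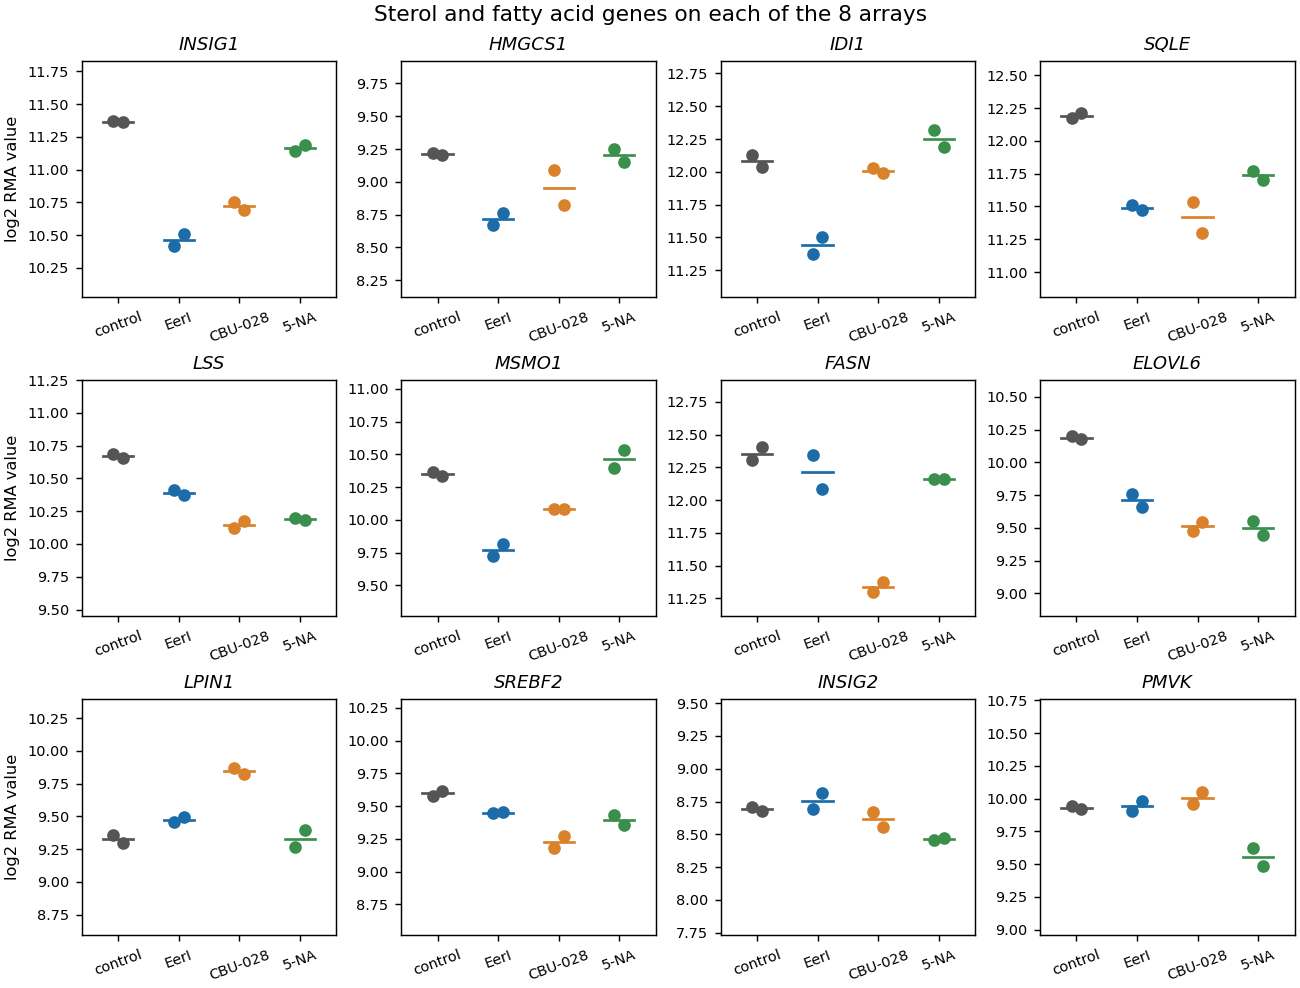
Log2 value of 12 genes on each of the 8 arrays (points, horizontally offset by replicate) with the mean of each group (lines), each panel spanning the same range of log2 units. INSIG1, IDI1, MSMO1 and HMGCS1 were lowest with EerI, FASN was lowest and LPIN1 highest with CBU-028, PMVK was lowest with 5-NA, and SQLE and ELOVL6 were below control with each compound.

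Of the 6 mevalonate and isoprenoid enzymes, EerI lowered 1, CBU-028 none (1 at an unadjusted p under 0.05 in limma) and 5-NA 1, where 0.263, 7.1 and 10.9% of all genes were called lower. A single gene of 6 with 5-NA is near that background. IDI1, which interconverts the C5 isoprenoid units, was at 12.13 and 12.04 in control, 11.37 and 11.50 with EerI, 12.03 and 11.99 with CBU-028, and 12.32 and 12.19 with 5-NA. The EerI arrays stood alone at the low end, and the fall was 1.56-fold (-0.64, SE 0.0885, limma adjusted p = 0.0166). Both bright probe sets of IDI1, whose names mark probes shared with other transcripts, gave -0.64, while 2 dim ones gave 0.02 and 0.05, and signal shared with a near-identical copy of the gene could not be separated. The call was lost when a control or an EerI array was left out (adjusted p up to 0.25).

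HMGCS1 was likewise lowest with EerI. It was at 9.22 and 9.20 in control, 8.67 and 8.76 with EerI, 9.09 and 8.82 with CBU-028, and 9.25 and 9.15 with 5-NA. With EerI it lay 1.41-fold lower without passing (-0.50, SE 0.102, limma adjusted p = 0.0947). Its dimmer probe set gave -0.71 with EerI (adjusted p = 0.131) and -0.66 with CBU-028 (limma adjusted p = 0.0356), where the first gave -0.25, so the probe sets disagree on CBU-028.

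PMVK, which phosphorylates phosphomevalonate, set 5-NA apart. Its arrays were at 9.95 and 9.92 in control, 9.90 and 9.99 with EerI, 9.96 and 10.05 with CBU-028, and 9.63 and 9.48 with 5-NA. Only the 5-NA arrays were low (-0.38, SE 0.0857, limma adjusted p = 0.0181), a call lost without either control array or 5-NA replicate 2 (adjusted p up to 0.125), the last being the array with the higher ACTB difference. MVK, which acts just before PMVK, was at -0.25 with 5-NA (limma adjusted p = 0.0694), and 2 of its 3 dimmer probe sets passed there at -0.32 and -0.35. MVD and FDPS, the mevalonate diphosphate decarboxylase and the farnesyl diphosphate synthase, lay between -0.22 and 0.05.

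Of the 2 measured enzymes around squalene, SQLE fell with all 3 compounds and LSS with 2 of them. Over all genes, 0.263% were called lower with EerI, 7.1% with CBU-028 and 10.9% with 5-NA. SQLE, the squalene epoxidase, was at 12.17 and 12.21 in control, 11.51 and 11.47 with EerI, 11.54 and 11.30 with CBU-028, and 11.77 and 11.71 with 5-NA. All treated arrays lay below both control arrays, with those of 5-NA nearest to them. The falls were 1.63-fold with EerI (-0.70, SE 0.0943, limma adjusted p = 0.0154), 1.71-fold with CBU-028 (-0.77, limma adjusted p = 0.00163) and 1.37-fold with 5-NA (-0.46, limma adjusted p = 0.0121). All 4 probe sets of SQLE were below control with each compound, from -0.15 to -0.89, and 3 of them passed with CBU-028 and with 5-NA, but 1 with EerI. The fall with CBU-028 stayed called without each array, that with EerI was lost when a control or an EerI array was left out (adjusted p up to 0.203), and that with 5-NA without a control array or 5-NA replicate 2 (adjusted p up to 0.0914).

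LSS, which folds oxidosqualene into lanosterol, was at 10.69 and 10.66 in control, 10.41 and 10.37 with EerI, 10.12 and 10.18 with CBU-028, and 10.20 and 10.19 with 5-NA. It fell with CBU-028 (-0.52, SE 0.0757, limma adjusted p = 0.0035) and 5-NA (-0.48, limma adjusted p = 0.00352), was at -0.28 with EerI (limma adjusted p = 0.202), and kept the first 2 calls whichever array was left out. Its 2 dim probe sets ranged from -0.21 to 0.13 and passed with none.

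Of 7 measured enzymes between lanosterol and cholesterol, MSMO1 alone passed, with EerI. That is 14.3% lower with EerI and 0 with CBU-028 and with 5-NA, where all genes gave 0.263, 7.1 and 10.9%. At an unadjusted limma p under 0.05, 3, 2 and 3 of the 7 were lower with EerI, CBU-028 and 5-NA. MSMO1 was at 10.36 and 10.34 in control, 9.72 and 9.82 with EerI, 10.08 and 10.08 with CBU-028, and 10.40 and 10.53 with 5-NA. The EerI arrays were lowest, those of CBU-028 in between, and those of 5-NA above control. EerI lowered it 1.49-fold (-0.58, SE 0.0828, limma adjusted p = 0.0208), a call lost when a control or an EerI array was left out (adjusted p up to 0.294). With CBU-028 it was at -0.27 (limma adjusted p = 0.0808) and with 5-NA at 0.11 (95% interval -0.07 to 0.30). NSDHL, which acts with MSMO1 in removing the methyl groups, was at -0.36, -0.29 and -0.30 with EerI, CBU-028 and 5-NA and passed with none. DHCR7, the last enzyme to cholesterol, was at -0.36 with EerI (limma adjusted p = 0.108), -0.08 with CBU-028 and -0.23 with 5-NA (limma adjusted p = 0.0824), while its other probe set passed with 5-NA (-0.38, limma adjusted p = 0.0184). TM7SF2, HSD17B7, EBP and SC5D lay between -0.21 and 0.18. The name of the HSD17B7 probe set marks probes shared with other transcripts, so its value is uncertain. The 2 probe sets annotated to CYP51A1 together with LRRD1 were between -0.07 and 0.16 against control.

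Of 8 measured fatty acid and lipid enzymes, EerI and 5-NA each lowered 1, ELOVL6, while CBU-028 lowered 2 and raised 1. That is 12.5, 12.5 and 25% lower with EerI, 5-NA and CBU-028, where all genes gave 0.263, 10.9 and 7.1%. The share with 5-NA is near that background. The rise with CBU-028 is 12.5%, where 5.49% of all genes were called higher. FASN, the fatty acid synthase that makes palmitate, was at 12.31 and 12.40 in control, 12.34 and 12.08 with EerI, 11.30 and 11.37 with CBU-028, and 12.16 and 12.16 with 5-NA. The CBU-028 arrays lay far below all others. CBU-028 lowered FASN 2.03-fold (-1.02, SE 0.0997, limma adjusted p = 0.000623), the largest change against control among the probe sets that represent the genes, and the call held without each array. Another probe set of INSIG1 fell further with EerI (-1.07), and with the mean of both its probe sets FASN was at -0.37 (limma adjusted p = 0.0237). FASN was at -0.14 with EerI (95% interval -0.37 to 0.08) and -0.19 with 5-NA (95% interval -0.42 to 0.03). Its second, dim probe set was at 0.27 with CBU-028 and did not pass.

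ELOVL6 was at 10.20 and 10.18 in control, 9.76 and 9.66 with EerI, 9.48 and 9.55 with CBU-028, and 9.56 and 9.45 with 5-NA. All treated arrays were below control, and the arrays of CBU-028 and 5-NA overlapped. The falls were 1.60-fold with CBU-028 (-0.68, SE 0.0825, limma adjusted p = 0.00164), 1.61-fold with 5-NA (-0.69, limma adjusted p = 0.00109) and 1.39-fold with EerI (-0.48, limma adjusted p = 0.0488). All 3 probe sets passed with CBU-028 and with 5-NA, and 2 with EerI. The EerI call of the first probe set lies at the threshold and was lost in 6 of 8 fits that left out an array, while the other calls held in all 8. In the promoter window shown above, ELOVL6 has a GC box and none of the other 3 motifs.

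LPIN1 was the 1 member that rose against control. It encodes a phosphatidate phosphatase of triglyceride synthesis, and was at 9.36 and 9.30 in control, 9.46 and 9.49 with EerI, 9.87 and 9.83 with CBU-028, and 9.26 and 9.40 with 5-NA. The CBU-028 arrays were above all others (1.44-fold, 0.52, SE 0.0821, limma adjusted p = 0.00515), and all 3 probe sets passed, at 0.59, 0.52 and 0.59. Without control replicate 2 the adjusted p was 0.0603.

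SCD, the desaturase that makes oleate, was at 12.009 and 12.003 in control, 11.68 and 11.75 with EerI, 11.92 and 11.83 with CBU-028, and 12.10 and 11.95 with 5-NA. The EerI arrays were the lowest (-0.29, SE 0.0859, limma adjusted p = 0.262), and no compound passed against control. ACACA, the carboxylase that supplies malonyl-CoA, ACLY and ACSS2, which supply acetyl-CoA, and FADS2, a desaturase of polyunsaturated fatty acids, lay between -0.24 and 0.04 and passed with none. A dimmer probe set of ACACA was higher with 5-NA (0.50, limma adjusted p = 0.00804), where the first gave -0.09. Of the 3 probe sets annotated to FADS1 together with MIR1908, 1 passed, higher with 5-NA (0.29, limma adjusted p = 0.0448).

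**Figure D3:**
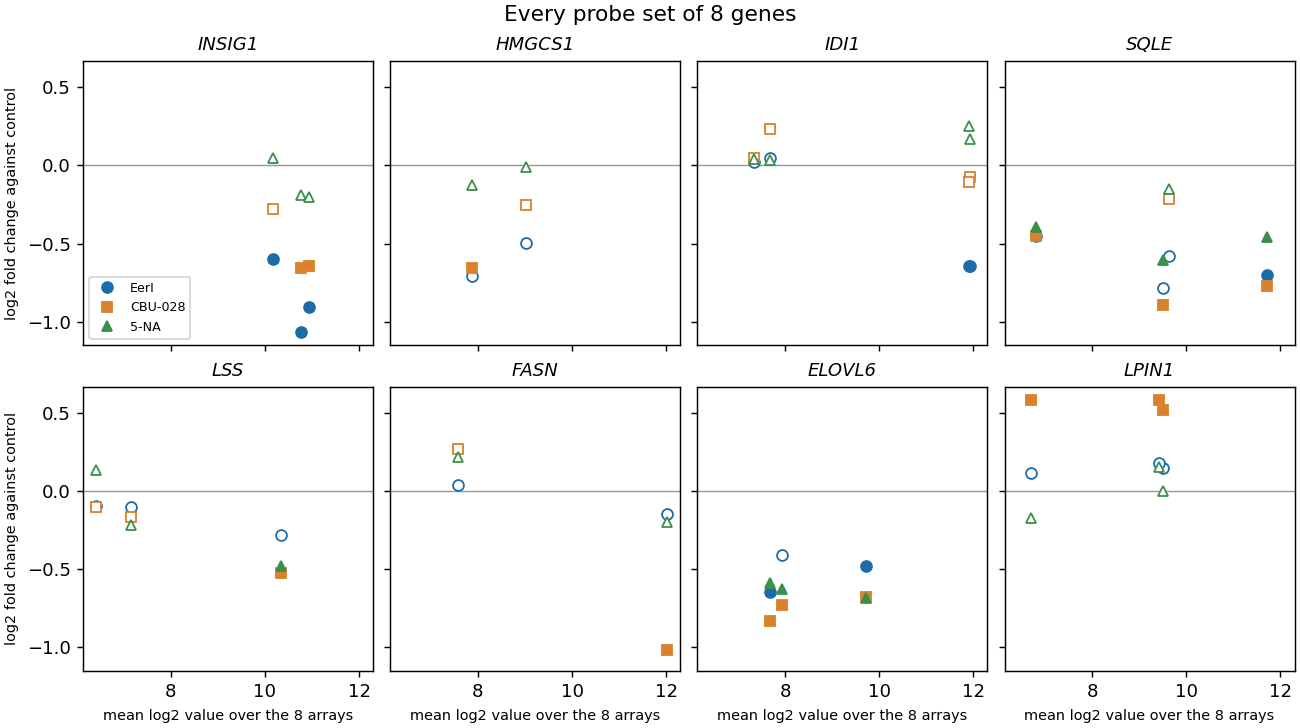
Log2 fold change against control of every single-gene probe set of 8 genes (points, filled where the limma adjusted p was under 0.05) over its mean log2 value on the 8 arrays, by compound. The probe sets of INSIG1, SQLE, ELOVL6 and LPIN1 lie on one side of 0 with CBU-028, while those of IDI1 and FASN below a mean of 8 lie near or above 0.

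The compounds were then set against each other at the same dose and time, in 3 pairs, to see where the agents differ directly. EerI and 5-NA differ in that 5-NA lacks the aromatic domain. IDI1, INSIG1 and MSMO1, which EerI had lowered, were higher with 5-NA than with EerI. In all, 5 members were higher and 2 lower, where 7.93% of all genes were called higher and 9.66% lower. IDI1 was 1.76-fold higher (0.81, SE 0.0885, limma adjusted p = 0.000826), INSIG1 1.63-fold (0.70, SE 0.0785, limma adjusted p = 0.000946) and MSMO1 1.62-fold (0.69, SE 0.0828, limma adjusted p = 0.00122). These 3 held without each array in turn, but without probe sets ending in _x_at IDI1 is left with a dim one at 0.02, and its other dim probe set is at -0.01. HMGCS1 was higher by 0.49 (SE 0.102, limma adjusted p = 0.0137) and SCD by 0.31 (SE 0.0859, limma adjusted p = 0.0447). PMVK was lower by -0.39 (limma adjusted p = 0.017) and INSIG2 by -0.29 (limma adjusted p = 0.0477). HMGCS1 was lost without an EerI or a 5-NA array (adjusted p up to 0.111), and PMVK without either EerI array or 5-NA replicate 2 (up to 0.126). The SCD and INSIG2 calls lie at the threshold and were each lost in 6 of 8 fits that left out an array. The other HMGCS1 probe set passed as well (0.58, limma adjusted p = 0.0434), and the 3 other SCD probe sets did not (-0.06 to 0.13).

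For genes that fell with both EerI and 5-NA, no difference was called. SQLE was at 0.25 for 5-NA minus EerI (95% interval 0.03 to 0.46, limma adjusted p = 0.126) and ELOVL6 at -0.21 (95% interval -0.39 to -0.02, limma adjusted p = 0.141). Another SQLE probe set did pass, at 0.43 (limma adjusted p = 0.0455), and the intervals do not show that the agents act alike on these genes.

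**Figure D4:**
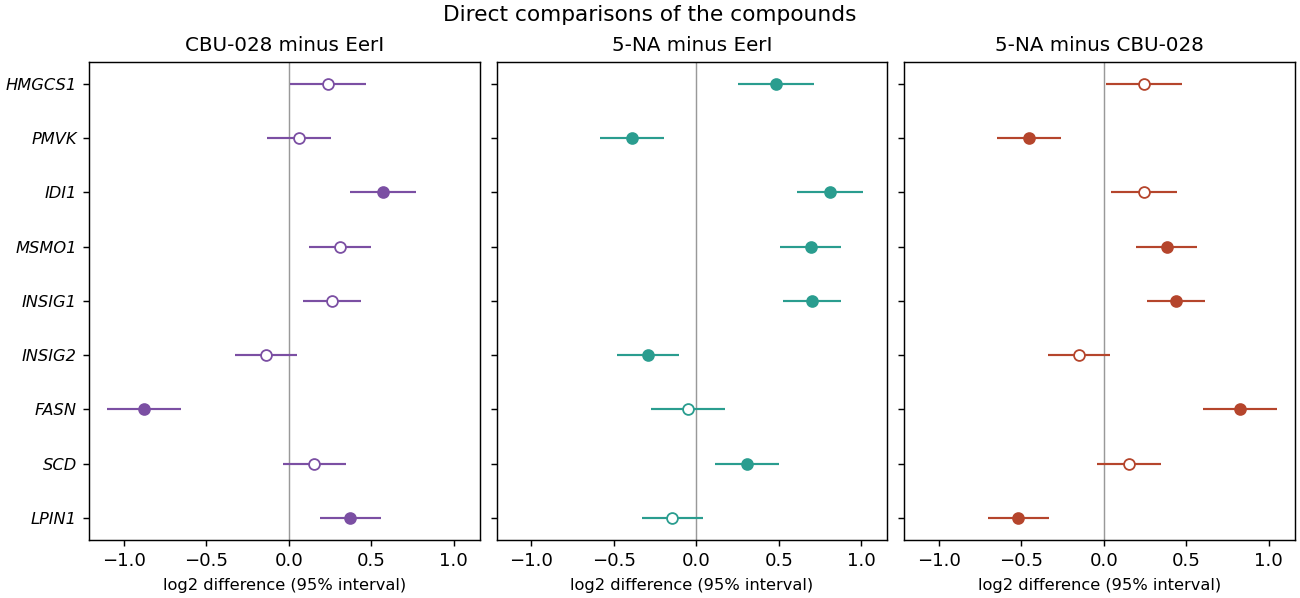
Log2 difference between compounds (points) with its 95% interval (lines) for the 9 genes that passed in at least 1 of the 3 pairs, filled where the limma adjusted p was under 0.05. IDI1, MSMO1, INSIG1 and HMGCS1 were higher with 5-NA than with EerI, and FASN was lower with CBU-028 than with each of the other compounds.

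CBU-028 and EerI differed in fewer members, 2 higher and 1 lower with CBU-028, where 1.6% of all genes were called higher and 2.13% lower. IDI1 was 1.48-fold higher with CBU-028 (0.57, SE 0.0885, limma adjusted p = 0.0164) and LPIN1 1.30-fold (0.37, SE 0.0821, limma adjusted p = 0.0479). FASN was 1.84-fold lower (-0.88, SE 0.0997, limma adjusted p = 0.00709). These calls depended on single arrays or probe sets, since FASN was lost without EerI replicate 1 (adjusted p = 0.0901) and with the mean of both its probe sets (-0.32, limma adjusted p = 0.0775), IDI1 without either EerI array (up to 0.171) or without probe sets ending in _x_at (a difference of 0.02) and LPIN1 in 7 of 8 such fits. INSIG1 was at 0.26 (95% interval 0.08 to 0.44, limma adjusted p = 0.119) and MSMO1 at 0.31 (95% interval 0.12 to 0.50, limma adjusted p = 0.0853), both above EerI without a call, and SQLE was at -0.07 (95% interval -0.29 to 0.14).

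Between 5-NA and CBU-028, 3 members were higher with 5-NA and 2 lower, where 6.47% of all genes were called higher and 7.33% lower. FASN was 1.77-fold higher with 5-NA (0.83, SE 0.0997, limma adjusted p = 0.00195), followed by INSIG1 (0.44, limma adjusted p = 0.00915) and MSMO1 (0.38, limma adjusted p = 0.0204). LPIN1 was lower by -0.52 (limma adjusted p = 0.00541) and PMVK by -0.45 (limma adjusted p = 0.0118). FASN and LPIN1 held without each array, whereas INSIG1, MSMO1 and PMVK were lost without 5-NA replicate 2, the array with the higher ACTB difference, at adjusted p of 0.0559, 0.113 and 0.0752. IDI1 was at 0.24 without passing (limma adjusted p = 0.124), and its other bright probe set passed at 0.36 (limma adjusted p = 0.0306). ELOVL6 and LSS were at -0.01 (95% interval -0.20 to 0.18) and 0.04 (95% interval -0.13 to 0.21).

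In all, 13 of the 29 genes passed in at least 1 of the 6 comparisons. The share of all genes that did so was not computed, so this count has no background beside it. The 16 whose representing probe set passed in none, MVK, MVD, FDPS, TM7SF2, NSDHL, HSD17B7, EBP, SC5D, DHCR7, SREBF1, SCAP, STARD4, ACACA, FADS2, ACLY and ACSS2, ranged from -0.36 to 0.21 against control. Besides the calls of other probe sets given above, MVK had 2 that passed for 5-NA against CBU-028 (-0.41 and -0.47, limma adjusted p = 0.0095 and 0.0134). ACACA had 1 that passed for 5-NA against EerI (0.53, limma adjusted p = 0.00645).

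The wider pathway was looked at with 5 further lists, 60 measured genes in all. EerI changed none of the 60 by the adjusted p (1 rise and 6 falls had an unadjusted limma p under 0.05), CBU-028 raised 3 and lowered 5, and 5-NA raised 6 and lowered 10, with medians of -0.01, 0.03 and -0.04. These are 5% higher and 8.33% lower with CBU-028, near the 5.49% and 7.1% of all genes, and 10% higher and 16.7% lower with 5-NA, where all genes gave 7.87% and 10.9%. Among 9 other sterol and isoprenoid enzymes, CBU-028 raised GGPS1, the geranylgeranyl diphosphate synthase (0.46, limma adjusted p = 0.0499), and lowered LBR, a sterol reductase of the inner nuclear membrane (-0.42, limma adjusted p = 0.0141), and 5-NA lowered ERG28 (-0.40, limma adjusted p = 0.0441). With CBU-028 this is 11.1% of the list each way, where all genes gave 5.49% higher and 7.1% lower. With 5-NA it is 11.1% lower, near the 10.9% of all genes.

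Of 8 genes of SREBP cleavage and of sterol-regulated ubiquitin ligases, 3 were lower with 5-NA and none with EerI or CBU-028 (with an unadjusted limma p under 0.05, 1 fell with EerI, and 1 rose and 1 fell with CBU-028). The 3 are 37.5% of the list. Over all genes 10.9% were lower with 5-NA, 0.263% with EerI and 7.1% with CBU-028. What the number of genes changed by each compound contributed to these counts was not tested. The 3 genes lower with 5-NA were MBTPS2, the site-2 protease that frees the SREBP factors (-0.56, limma adjusted p = 0.00216), ERLIN2, a partner of ER ubiquitin ligases (-0.53, limma adjusted p = 0.00308), and PAQR3, which tethers SCAP to the Golgi (-0.34, limma adjusted p = 0.0233). Directly against EerI these 3 were also lower with 5-NA, at -0.67, -0.51 and -0.41.

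Of 19 other fatty acid enzymes, CBU-028 raised 2 and lowered 2, and 5-NA raised 3 and lowered 2. That is 10.5% each way with CBU-028, where all genes gave 5.49% higher and 7.1% lower. With 5-NA it is 15.8% higher and 10.5% lower, where all genes gave 7.87% and 10.9%. The share lower with 5-NA is thus at that of all genes. ELOVL7, an elongase of long-chain fatty acids, was at 1.19 with 5-NA (limma adjusted p = 0.000174) and at 0.51 with CBU-028 (limma adjusted p = 0.00891). The malic enzyme ME1, a source of NADPH, was at 0.49 with CBU-028 and also passed with 5-NA (0.32, limma adjusted p = 0.0209). With EerI it was at 0.29 without passing (limma adjusted p = 0.184). OXSM and MECR, of mitochondrial fatty acid synthesis, fell with 5-NA (-0.65 and -0.52), and ACSL4, an acyl-CoA synthetase, fell with CBU-028 (-0.38).

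Of 11 genes of the sterol sensor LXR, sterol export and esterification, MYLIP, a ubiquitin ligase induced by LXR, was higher with 5-NA (0.78, limma adjusted p = 0.000826) and lower with CBU-028 (-0.49, limma adjusted p = 0.00899), and NR1H3, which encodes LXR alpha, and SOAT1, which esterifies cholesterol, were lower with 5-NA (-0.58 and -0.42). Of 13 glycerolipid and phospholipid enzymes, 5-NA raised 2, among them CHKA (0.45), and lowered 2, PCYT2 (-0.46) and AGPAT1 (-0.43). CBU-028 lowered 1 of them, CHKB (-0.39). With 5-NA, 9.09% of the LXR list were higher and 18.2% lower, and 15.4% of the glycerolipid list each way. All genes gave 7.87% higher and 10.9% lower. With CBU-028, 9.09% and 7.69% of these lists were lower, where all genes gave 7.1%.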

How the data were processed

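RNA of 293T cells, 2 arrays for each of 4 groups, was measured on Affymetrix arrays. The authors deposited log2 values made with the RMA algorithm (background subtraction, quantile normalization, summary of each probe set), and the labels also name Partek, with no version for either. The array type in the methods is not the one whose probe set identifiers the table has (HG-U133 Plus 2.0). The methods and the labels name different RNA kits.

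Probe sets were named from the platform annotation, and by their gene identifiers none of the symbols needed updating. A single symbol was found for 41097, several for 1801 and none for 11777. A gene took its probe set with the highest mean. In R 4.3.3, limma 3.58.1 fitted a mean per group over all 54675 probe sets and 8 arrays (4 residual and 5.08 prior degrees of freedom), with Benjamini-Hochberg adjustment over all probe sets of each of 6 comparisons and no fold threshold. The methods used ANOVA at a p under 0.05, with no adjustment named, and thresholds of 2-fold or 1.5-fold. An exact test of 2 arrays against 2 cannot give a p under 0.333. Control and EerI arrays had a residual SD of 0.0921 and 0.0974, CBU-028 of 0.163 and 5-NA of 0.119, so tests with CBU-028 use a narrower spread than its own. The fit was tested on simulated data.

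Array values are given for members that passed in a comparison and were among the 14 with the largest change against control, and for INSIG1, INSIG2, SREBF1, SREBF2 and SCAP. From other lists up to 3 passing genes per comparison are named. Members and lists were chosen with earlier results of these data known. Promoter windows came from RefSeq (GRCh38.p14). Alternatives were the methods' ANOVA, a 1.5-fold threshold, a replicate block, the compared groups alone, median centring, renewed quantile normalization, a floor at 5, the mean of all probe sets of a gene, no probe sets ending in _x_at, and leaving out each array, where the lone array left in a group is taken to vary like the others. Figures were drawn with matplotlib 3.10.9.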

Additional observations from a re-analysis of the deposited data

How the results depend on the processing

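Of the 31 calls of a member in a comparison, each tried under 18 settings, 410 results kept their direction and stayed past the threshold, 147 kept their direction without passing, and 1 turned: IDI1 with EerI was at 0.0243 without probe sets ending in _x_at, which leaves a dim probe set. With each array left out, the members lower with EerI numbered 1 to 6 (1 when a control array or an EerI array was left out), with CBU-028 5 to 7, and with 5-NA 2 to 5 (2 without either control array or 5-NA replicate 2), and the members higher numbered 0 to 0, 0 to 1 (0 without control replicate 2) and 0 to 0. CBU-028 against EerI gave 0 to 2 higher (0 without either EerI array) and 0 to 1 lower (0 without EerI replicate 1), 5-NA against EerI 3 to 6 higher and 0 to 3 lower (fewest higher without an EerI or a 5-NA array, fewest lower without either EerI array or 5-NA replicate 2), and 5-NA against CBU-028 1 to 5 higher and 1 to 2 lower (fewest without 5-NA replicate 2). The methods' ANOVA with Benjamini-Hochberg adjustment gave 1 lower with EerI, 0 higher and 0 lower for CBU-028 against EerI, 3 higher and 1 lower for 5-NA against EerI, and 1 lower for 5-NA against CBU-028. No member was higher with EerI or 5-NA under any of these alternatives. At the unadjusted p of that ANOVA and 2-fold, 1 member was lower with CBU-028 and 0 passed in each other count. With limma and 1.5-fold, 3 were lower with EerI and 1 with 5-NA, 0 were higher with CBU-028, 0 were higher for CBU-028 against EerI, 3 higher and 0 lower for 5-NA against EerI, and 1 higher and 0 lower for 5-NA against CBU-028. The compared groups alone gave 0 higher and 0 lower for CBU-028 against EerI and 1 higher and 1 lower for 5-NA against CBU-028. The mean of all probe sets gave 0 lower and the setting without _x_at 1 higher for CBU-028 against EerI, and median centring gave 1 lower for 5-NA against EerI. The causes of these shifts were not tested, except that adding a fold threshold to the limma call can only remove calls. The replicate block gave 1 higher for CBU-028 against EerI and 1 lower for 5-NA against EerI and left the other counts within 1.5 times. Replicate numbers did not pair the samples (correlation of replicate differences between groups from -0.146 to 0.146). With 2 arrays a group, small changes of single members cannot be resolved.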
